A study of Mus musculus with 8 samples.

Results

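A set of 10 genes whose transcripts are known to rise in long-term hematopoietic stem cells (LT-HSC) as mice age was followed through single cells of old mice. They were listed by name: Selp, Nupr1, Aldh1a1, Clu, Sult1a1, Tgm2, Ehd3, Gda, Fyb and Mt1. All 10 had a row in each of the 8 deposited tables, whose union held 18174 gene symbols, and all 10 passed the filter on low counts that left 5666 genes. LT-HSC are the rare, mostly resting marrow cells that can rebuild blood formation after transplantation. With age they grow in number, yield fewer lymphoid cells and carry a raised expression program rich in adhesion, platelet and stress genes. No cells of young mice were analysed here, so the rise with age is background and was not tested.

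The cells came from the bone marrow of untreated male C57BL/6J wild-type mice aged 18 months, bought from JAX. The surface phenotype that both groups share was Lin-CD150+CD48-CD34-Kit+Sca1+, and each cell was then sorted as Dlk1+ or Dlk1-, with 4 libraries per sort. Dlk1 is a membrane protein related to Notch ligands, and its gene is imprinted. RNA was read with mCEL-Seq2, a plate-based 3′ method. A well's barcode marks the cell, and a random tag (UMI, unique molecular identifier) lets each captured polyadenylated transcript count once whatever its length. Which mice, and how many, stand behind a library is not given in the labels. The p-values below therefore measure the spread between libraries, which may be technical. The names of the tables put replicates 1 and 2 of each sort on plate 5 and replicates 3 and 4 on plate 6. The 4 libraries of a sort used the same well barcodes, and each sort had its own set, so well set and sort cannot be told apart.

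With at least 1000 transcripts asked of a cell, the Dlk1+ libraries 1 to 4 kept 86, 27, 26 and 81 cells and the Dlk1- libraries 96, 36, 95 and 94. Their summed transcripts ranged from 39073 to 456925 in Dlk1+ and from 230443 to 517559 in Dlk1-. Dlk1+ replicate 3 stood apart in depth, with a median of 1300 transcripts per cell against 3421 to 5584 in the other libraries. One transcript in it is worth 25.6 CPM, a count scaled to its library's total. Dlk1 RNA matched the sort, at 506.8 ± 146.1 CPM (SD, n = 4) in Dlk1+ and 28.65 ± 23.85 CPM in Dlk1-. All 15 HSC markers looked for had UMIs, with a summed level of 2304 to 3788 CPM in the Dlk1+ and 2805 to 3749 CPM in the Dlk1- libraries. Transcripts of the satellite-like rows Gm10800 and Gm26870 made up 10.13% to 32.81% of a library and were lowest in replicate 4 of both sorts.

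The 10 genes held 4656 UMIs in the kept cells, 0.173% of all transcripts. Taken over the 8 libraries, Tgm2 had the highest mean level at 392.6 CPM. Sult1a1 (257.3 CPM), Gda (239.1 CPM), Aldh1a1 (234 CPM) and Selp (201.1 CPM) followed. Clu (160.1 CPM), Mt1 (124.4 CPM), Ehd3 (98.02 CPM), Nupr1 (82.17 CPM) and Fyb (66.65 CPM) were lower. The ranges of all neighbours in this order overlapped, so the order holds for the means only. Tgm2 was above Sult1a1 in 7 of 8 libraries, whereas Sult1a1 was above Gda in 4 of 8 and Gda above Aldh1a1 in 3 of 8. Among the 5666 genes, Tgm2 stood at percentile 96.06 of mean level and Fyb, the lowest of the list, at percentile 66.63.

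Between the sorts, none of the 10 genes passed a false discovery rate (FDR) of 0.05 in the limma-voom test on library sums, in which 2 of 5666 genes (0.0353%), Dlk1 and Timp3, did. At an unadjusted p under 0.05 there were 4 of 10, namely Sult1a1, Tgm2, Clu and Gda, all with a higher fitted level in Dlk1+, against 2.26% of all genes. Over all genes 6.51% reached that p in either direction and 4.25% with a lower level in Dlk1+. No count-model test was run beside it. The fitted log2 fold change of Dlk1+ over Dlk1- was above 0 for 8 of 10 genes, against 44.8% of all genes, and its median was 0.321, against -0.0446 over all genes. All genes were not matched to the 10 in level. The 10 were also chosen with earlier results of these data known, so these counts do not test the list. For 0 of 10 did all Dlk1+ libraries lie above all Dlk1- libraries in CPM, as they did for 1.11% of all genes (3.14% in either direction). On simulated libraries of the same depth the test recovered 5% of genes changed 2-fold and 74% of those changed 4-fold, so a missing call sets no limit on differences of about that size. The simulation gave every gene the same dispersion, the spread between libraries beyond counting, and drew the changed genes from all 5666. Its rates are therefore not those of the 10 genes. The 95% interval of the fold change excluded a 2-fold higher level in Dlk1+ for 5 of 10 genes and a 2-fold lower level for all 10.

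**Figure D1:**
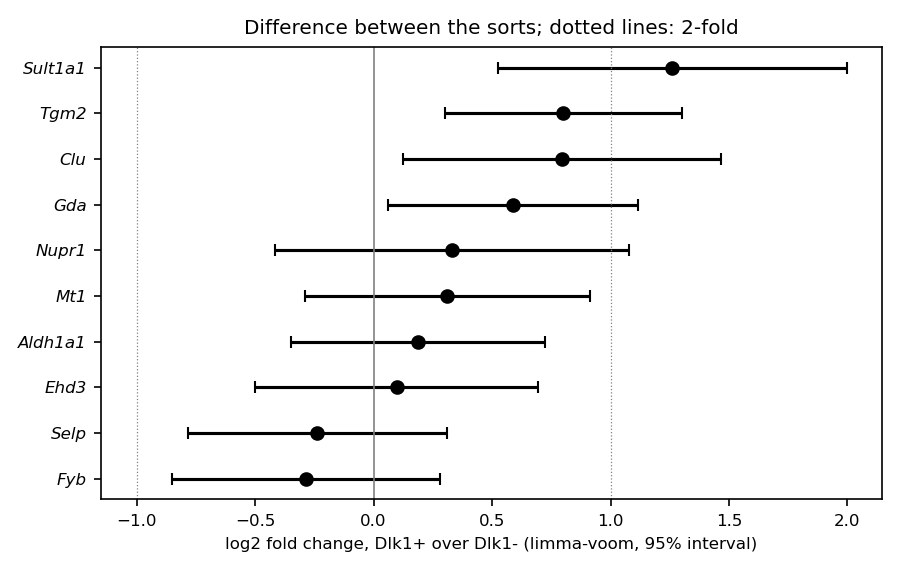
Fitted log2 fold change of Dlk1+ over Dlk1- libraries for each of the 10 genes (points) with its 95% interval (bars), from limma-voom over 4 libraries per sort. The intervals of Sult1a1, Tgm2, Clu and Gda lie above 0 before adjustment for 5666 genes, and none of the 10 passed the adjusted threshold.

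Among the genes for secreted and matrix-acting proteins, Tgm2 and Clu both had higher mean levels in the Dlk1+ sort. Tgm2 encodes transglutaminase 2, an enzyme that cross-links proteins and also binds GTP. It lies at chr2:158116405-158146392 (GRCm38.p6). Its level in Dlk1+ libraries 1 to 4 was 310.9, 556, 742.4 and 446.5 CPM, and in Dlk1- libraries 266.7, 212.7, 269.2 and 335.4 CPM. The groups overlapped only where Dlk1- replicate 4 lay above Dlk1+ replicate 1. This came to a log2 fold change of 0.80 (SE 0.24, limma-voom adjusted p = 0.5645), with an interval of 0.30 to 1.30. Within plate 5 the mean in Dlk1+ was 1.809 times that in Dlk1-, and within plate 6 it was 1.966 times.

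The share of cells with a Tgm2 UMI was compared at an equal depth of 1000 UMIs per cell, since a share grows with depth. It was 29.81%, 40.55%, 57.38% and 36.63% in Dlk1+ libraries 1 to 4 and 24.23%, 21.7%, 22.42% and 28.02% in Dlk1-. Here the groups did not overlap, with means of 41.09% ± 11.73 and 24.09% ± 2.825 (SD, n = 4). For how many of all genes such shares do not overlap was not computed. A two-sided exact permutation test of the library values (70 assignments) gave p = 0.0286, the smallest it can give, without adjustment for the 10 genes so compared. Adjusted over these 10 genes, the p of that test was 0.2857. With all UMIs the shares were 75.75% and 69.22%, and the groups overlapped. Barcodes of the unused wells, 728 in all with 23663 UMIs, carried 13 Tgm2 UMIs and between 1 and 4 of each other gene.

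Clu encodes clusterin, a secreted chaperone that also travels in lipoproteins, at chr14:65968483-65981548. Its level was 88.47, 224.4, 435.2 and 155.4 CPM in Dlk1+ and 104.3, 56.43, 90.44 and 125.8 CPM in Dlk1-. Dlk1+ replicate 1 lay inside the Dlk1- range and the other Dlk1+ libraries above it. The highest value, in the shallow Dlk1+ replicate 3, rests on 17 UMIs. Its log2 fold change was 0.79 (SE 0.32, limma-voom adjusted p = 0.6936). The share of cells with a Clu UMI at 1000 UMIs was 17.77% ± 9.068 in Dlk1+ and 8.615% ± 2.469 in Dlk1- (exact permutation p = 0.05714, unadjusted, n = 4). The difference of 9.154 percentage points was 4.914 without Dlk1+ replicate 3. With Gm10800 and Gm26870 left out before thinning the shares did not overlap, at 13.61% to 32.42% in Dlk1+ and 7.038% to 12.37% in Dlk1-. The exact permutation p was 0.02857 unadjusted and 0.09524 adjusted over the 10 genes. All genes were not compared in this way.

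Of the 8 genes in the transglutaminase and matrix list, 2 were tested and 1, Timp3, was called as higher in Dlk1+. Timp3 encodes a matrix-bound inhibitor of metalloproteinases, with a log2 fold change of 2.41 and a limma-voom adjusted p of 0.01327. In the list of extracellular chaperones and their receptors 4 of 8 were tested and 0 called. Its most abundant gene was Apoe, the apolipoprotein, with a log2 fold change of 0.56 (adjusted p = 0.7567). Markers of marrow stroma, a cell type that makes matrix proteins, were scarce. All 10 had a UMI, 4 of them on no more than 3 UMIs, and their sum was 32.83 to 126.9 CPM in Dlk1+ and 19.32 to 34.72 CPM in Dlk1- libraries. Their part in the values of Tgm2 and Clu was not tested.

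**Figure D2:**
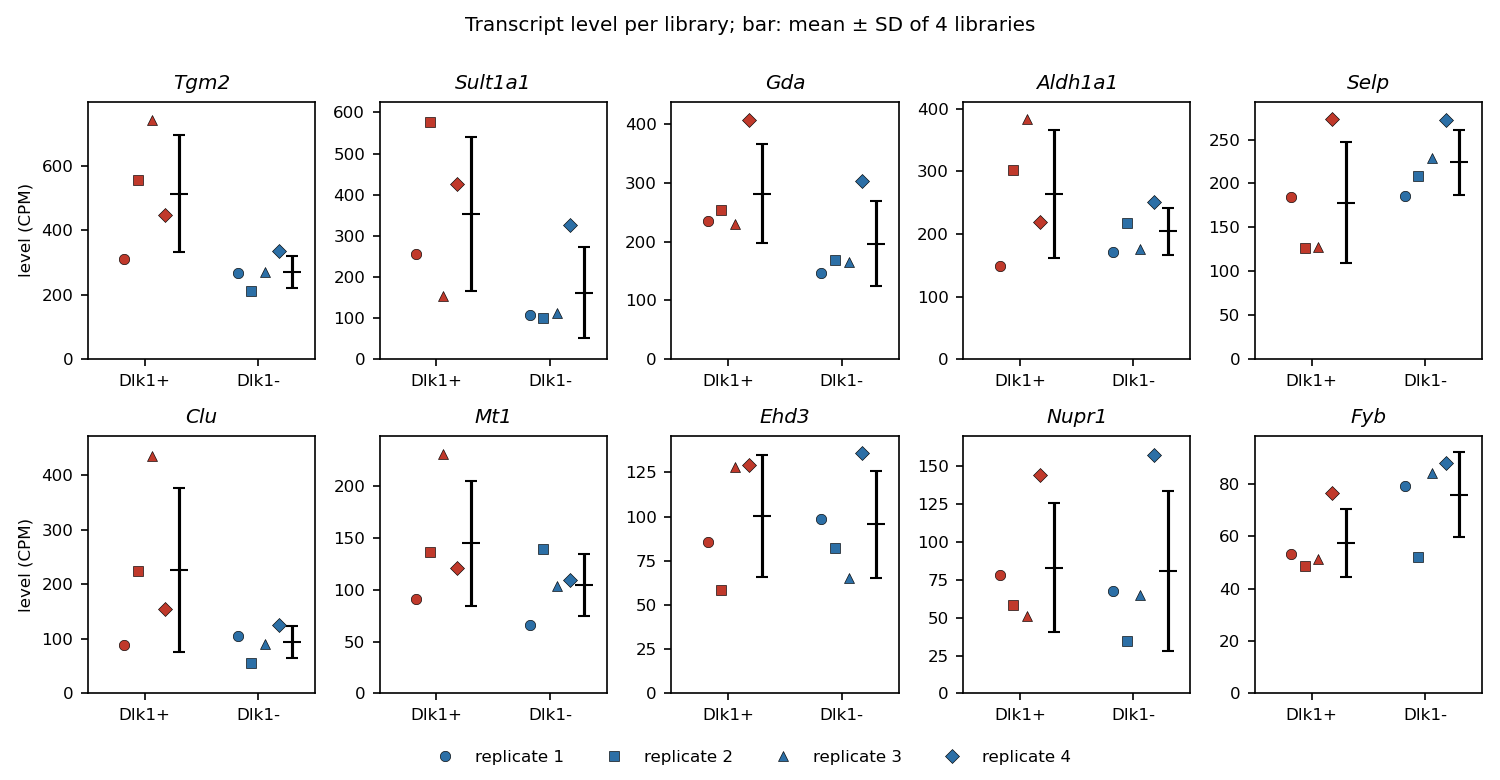
Level of each gene in CPM (linear axes from 0) in the 4 Dlk1+ (red) and 4 Dlk1- (blue) libraries, marker shape giving the replicate number and bars the mean ± SD. Replicate 4 (diamonds) was the highest Dlk1- library for 9 of 10 genes, and no panel shows all red markers above all blue ones.

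Among the enzymes, Sult1a1 and Gda had higher mean levels in Dlk1+ and Aldh1a1 differed by less than its spread. Sult1a1 encodes a cytosolic sulfotransferase for phenolic compounds, at chr7:126672865-126690443. Its level was 255.3, 575.9, 153.6 and 426.8 CPM in Dlk1+ and 108.2, 99.84, 111.5 and 327.1 CPM in Dlk1-. Without Dlk1- replicate 4 every Dlk1+ library would lie above every Dlk1- library. The log2 fold change, 1.26 (SE 0.35, limma-voom adjusted p = 0.5596) with an interval of 0.52 to 2.00, was the largest of the 10 genes. The ratio of means was 3.995 on plate 5 and 1.324 on plate 6, so the plates differed in its size. Without the shallow Dlk1+ replicate 3 the adjusted p was 0.06234, the lowest any of the 10 genes reached in the 18 alternative fits.

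The share of cells with a Sult1a1 UMI at 1000 UMIs was 24.26%, 41.01%, 15.71% and 37.37% in Dlk1+ and 11.14%, 10.69%, 10% and 26.4% in Dlk1- (exact permutation p = 0.08571, unadjusted, n = 4). The Dlk1- libraries 1 to 3 lay close together, and replicate 4 stood well above them. Slx1b, a nuclease subunit gene that overlaps Sult1a1 in the RefSeq annotation, had fewer UMIs than the 649 of Sult1a1. How reads were split between them is not given in the sources used here. Its log2 fold change was -0.40, opposite in sign to that of Sult1a1. Of the 10 sulfation genes 2 were tested and 0 called, the other being Papss1, which makes the sulfate donor, with a log2 fold change of -0.32 (adjusted p = 0.9015).

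Gda encodes guanine deaminase, which removes guanine from the purine salvage route, at chr19:21391307-21472661. Its level was 235.1, 253.8, 230.4 and 407.3 CPM in Dlk1+ and 146.9, 169.3, 166.1 and 304 CPM in Dlk1-. In both sorts replicates 1 to 3 were close together and replicate 4 was high, and Dlk1- replicate 4 lay above 3 of the 4 Dlk1+ libraries. Fitted over all libraries, the log2 fold change was 0.59 (SE 0.25, limma-voom adjusted p = 0.7066). Of the 11 genes of purine salvage and breakdown, 7 were tested and 0 called. Pnp, which feeds guanine to Gda, had a log2 fold change of 0.26 and Nt5c2, a nucleotidase, one of -0.38.

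Aldh1a1 encodes a retinaldehyde dehydrogenase that makes retinoic acid and clears aldehydes, at chr19:20492583-20643463. Its level was 149.1, 302.5, 384 and 218.9 CPM in Dlk1+ and 172.003, 217, 176.7 and 251.6 CPM in Dlk1-. The Dlk1+ libraries spread on both sides of the Dlk1- range. Its log2 fold change was 0.19 with an interval of -0.35 to 0.72 (limma-voom adjusted p = 0.9066), and it turned to -0.21 when cells needed 2000 transcripts. Aldh1a7, a close paralogue beside it on the chromosome, was not analysed here. In the retinoid and aldehyde list 6 of 14 genes were tested and 0 called. Cyp26b1, which breaks retinoic acid down, had a log2 fold change of 1.02 (adjusted p = 0.6936), and Aldh2, the mitochondrial enzyme, one of 0.11.

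The adhesion genes were the pair with lower fitted levels in Dlk1+, both with intervals that included 0. Selp encodes P-selectin, the adhesion receptor of platelets and endothelium that is also a surface marker of old LT-HSC, at chr1:164115264-164150026. Its level was 184.5, 126.9, 127.98 and 273.7 CPM in Dlk1+ and 185.5, 208.3, 229.2 and 272.6 CPM in Dlk1-. Replicate 4 was the highest library of each sort, at nearly the same value. The fitted log2 fold change of -0.24 had an interval of -0.79 to 0.31 (limma-voom adjusted p = 0.8818). Of the 7 selectins and ligands 4 were tested and 0 called, and Sele, E-selectin, was not analysed here. Cd44, a hyaluronan receptor, had a log2 fold change of 0.25 and Glg1, a Golgi protein that binds E-selectin, one of 0.27.

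Since Selp marks platelets and endothelium, markers of both were summed. All 12 megakaryocyte markers had a UMI, with a sum of 637.1 to 1101 CPM in Dlk1+ and 560 to 855.4 CPM in Dlk1-. The list holds genes that HSC also express, Vwf among them. Gp6 and Ppbp had 1 UMI each. Of 9 endothelial markers 7 had a UMI, with a sum of 51.19 to 113.8 CPM in Dlk1+ and 60.76 to 123.7 CPM in Dlk1-. Cdh5, the defining junction gene of endothelium, was not analysed here.

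Fyb encodes an adaptor that links T-cell and platelet receptors to integrins, at chr15:6522796-6665608. It was the least abundant of the 10, at 53.08, 48.79, 51.19 and 76.61 CPM in Dlk1+ and 79.23, 52.08, 84.13 and 88.04 CPM in Dlk1-. Fitted as a log2 fold change, the difference was -0.28 with an interval of -0.85 to 0.28 (limma-voom adjusted p = 0.8678). The value of Dlk1+ replicate 3 rests on 2 UMIs. Of 13 genes of the integrin adaptor list 11 were tested and 0 called. Tln1 (talin) had a log2 fold change of 0.24 and Fermt3 (kindlin-3), which activates integrins with talin, one of -0.23. The T-cell receptor genes Cd3e, Cd3d, Cd3g, Trac, Trbc1 and Trbc2 were not analysed here.

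Ehd3, which encodes an ATPase of endocytic recycling, had the smallest fitted difference between the sorts. It lies at chr17:73804841-73832093. Its level was 85.94, 58.55, 127.99 and 129.2 CPM in Dlk1+ and 98.55, 82.47, 65.2 and 136.3 CPM in Dlk1-, the ranges almost coinciding. Its log2 fold change was 0.10 with an interval of -0.50 to 0.69 (limma-voom adjusted p = 0.9633). Of 10 endocytic recycling genes 7 were tested and 0 called. Its relative Ehd4 had a log2 fold change of 0.42 and Rab11a, the recycling GTPase, one of 0.28.

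The intervals of the stress genes Nupr1 and Mt1 also included 0. Nupr1 encodes a small nuclear protein induced by stress, at chr7:126623246-126625470, 47.39 kb from Sult1a1 with 1 gene, Sgf29, between them. Its level was 78.35, 58.55, 51.19 and 144.5 CPM in Dlk1+ and 67.63, 34.72, 65.2 and 157.2 CPM in Dlk1-. Replicate 4 had the highest value in both sorts, so this gene varied more between replicates than between sorts. Between sorts the log2 fold change was 0.33 with an interval of -0.42 to 1.08 (limma-voom adjusted p = 0.8818). Of the 12 stress regulators 6 were tested and 0 called. Atf3, a stress-induced transcription factor, had a log2 fold change of 1.52 (adjusted p = 0.5645) and Cdkn1a, the cell-cycle inhibitor p21, one of 1.20 (adjusted p = 0.5412).

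Mt1 encodes a metallothionein, a small protein that binds zinc and copper and is induced by metals and glucocorticoids. It lies at chr8:94178883-94180327, 5.315 kb from its sister gene Mt2 with no gene between them. Its level was 91.01, 136.6, 230.4 and 120.4 CPM in Dlk1+ and 65.71, 138.9, 103.1 and 109.01 CPM in Dlk1-. Dlk1+ replicate 3 was the highest, on 9 UMIs, and the other ranges overlapped. The log2 fold change was 0.31 with an interval of -0.29 to 0.91 (limma-voom adjusted p = 0.8609). For Mt2, with 92 UMIs, it was -0.20 (adjusted p = 0.9385), and of the 8 metallothionein and zinc genes 3 were tested and 0 called.

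Since Mt1 and Mt2 were detected together in 37 cells, the stretches before their RefSeq promoter starts that hold the core of the metal response element are shown. That element is the known binding site of the zinc-sensing factor MTF-1. The sequences are from RefSeq (GRCm38.p6, plus strand, 5′ to 3′). Capitals mark a match to TGCACNC or TGCGCNC on either strand.
Mt1 site, chr8:94179055-94179083: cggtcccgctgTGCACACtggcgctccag
Mt2 far site, chr8:94172384-94172412: agcatcgcctcTGCACCCggcccctcggg
Mt2 middle site, chr8:94172479-94172507: cgcagacccttTGCGCTCagctcctttgc
Mt2 near site, chr8:94172557-94172585: ggggggagggcGTGTGCAggctctgtccc
The start in the RefSeq promoter entry of Mt2 is that of its gene span, 94172618, whereas that of Mt1, 94179089, lies 206 bases inside its gene span, so the Mt1 site is within the span. In the 250 bases before these starts, Mt2 held 3 matches and Mt1 1. Most of the Mt1 stretch lay inside its gene span, so sequence before that span was hardly searched. The counts therefore do not compare the genes and do not give the number of elements of either. RefSeq lists 32851 promoters of that length, of which 21.4% held at least 1 match and 5.2% at least 2. Of the 8 genes of the list with a promoter entry, Mt1 and Selp held a match. A match is a run of letters and not evidence of binding.

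Over the 541 kept cells, Mt2 was seen in 63 and Mt1 together with Mt2 in 37. An Mt1 UMI was present in 58.73% of cells with an Mt2 UMI and in 25.1% of the others. Without matching depth, the direction was the same in each of the 7 libraries with Mt2 UMIs, from 27.27% against 22.35% in Dlk1- replicate 1 to 85.71% against 22.73% in Dlk1- replicate 3. Cells with Mt2 were also deeper, with a median of 5977 against 4740 UMIs in Dlk1- replicate 1 and 5722 against 4458 in Dlk1- replicate 3. With every cell thinned to 2000 UMIs, Spearman's rho of Mt1 and Mt2 over cells was 0.128, 0.706 and 0.095 in Dlk1+ libraries 1, 2 and 4 and -0.1, 0.221, 0.207 and 0.177 in Dlk1- libraries 1 to 4. At equal depth it was thus above 0 in 6 of 7 libraries and below 0 in Dlk1- replicate 1.

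At 1000 UMIs per cell, the shares of cells for the remaining 7 genes overlapped between the sorts, as did those of Clu and Sult1a1. Gda was seen in 24.07% ± 8.771 of Dlk1+ and 17.62% ± 5.299 of Dlk1- cells, and Aldh1a1 in 22.17% ± 6.258 and 17.91% ± 2.507 (SD, n = 4 libraries). Mt1 was seen in 13.44% ± 7.889 and 8.979% ± 2.689, with Dlk1+ replicate 3 at 25.16% and the other Dlk1+ libraries at 8.674% to 11.01%. Of the adhesion genes, Selp was seen in 17.75% ± 5.144 and 20.11% ± 2.427, and Fyb in 5.496% ± 2.055 and 7.23% ± 1.078. Ehd3 (9.548% ± 2.631 and 8.971% ± 2.37) and Nupr1 (8.69% ± 4.08 and 7.92% ± 4.829) had nearly equal means. The exact permutation p of these 7 genes, unadjusted, ran from 0.2 for Fyb to 0.7714 for Ehd3. With Gm10800 and Gm26870 left out before thinning, the Fyb shares no longer overlapped, at 3.295% to 7.824% in Dlk1+ and 7.913% to 10.8% in Dlk1-. The exact permutation p was 0.02857 unadjusted and 0.09524 adjusted over the 10 genes. How often such shares do not overlap among all genes was not computed. The signs for Aldh1a1, Nupr1 and Fyb turned at 2000 UMIs, where Dlk1+ replicate 3 rests on 4 cells.

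How the genes were spread over cells was looked at in the 493 cells of 7 libraries that allowed thinning to 2000 UMIs. Dlk1+ replicate 3, with 4 such cells, was left out. Tgm2 was detected in 47.26% of these cells, Gda in 38.34%, Selp in 34.48%, Sult1a1 in 32.25% and Aldh1a1 in 30.02%. Clu (18.05%), Ehd3 (17.85%), Nupr1 (17.04%), Mt1 (14.6%) and Fyb (14.2%) were seen in fewer. Most detections were of 1 UMI. Even for Tgm2, no more than 59 cells had 2 UMIs and 26 had 3 or more. A missing UMI at this depth does not show that a cell lacks the transcript.

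**Figure D3:**
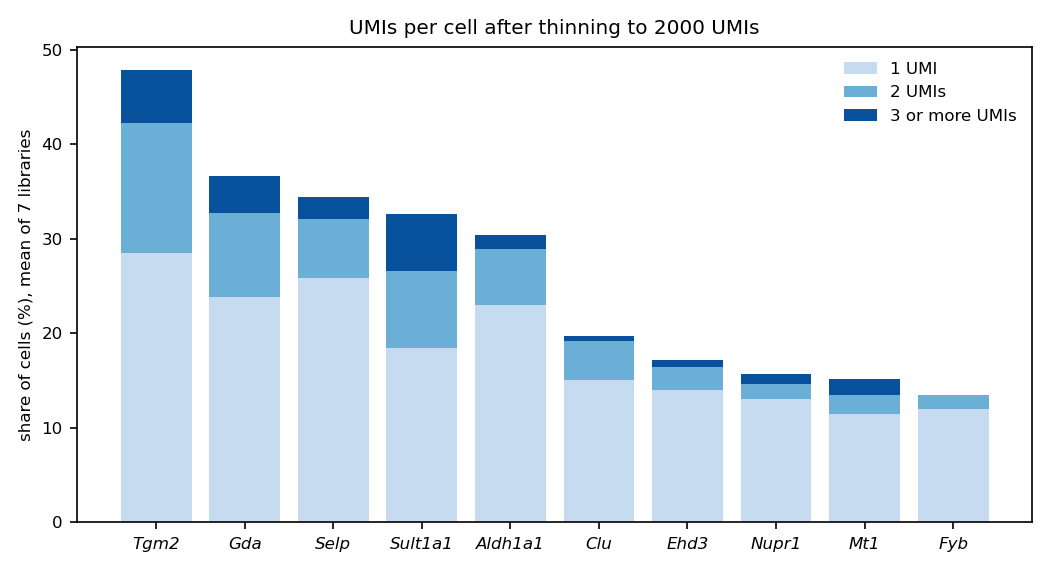
Share of cells with 1, 2 and 3 or more UMIs of each gene after thinning every cell to 2000 UMIs, as the mean of 7 libraries (Dlk1+ replicate 3 left out). Tgm2, Gda and Sult1a1 have the most cells with more than 1 UMI, while Fyb has none with 3 or more.

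The Fano factor, the variance of UMIs over their mean, would be near 1 if cells differed by sampling alone. It was highest for Mt1 at 1.523 and Sult1a1 at 1.445, at percentiles 94.26 and 92.94 of 1515 genes detected in at least 15% of cells. Mt1 and Fyb, detected in fewer, are not among those 1515 genes and were only set against them. Fyb had the lowest at 1.042, and the median over those 1515 genes was 1.088. The factor was a mean over libraries, which ranged from 0.9701 to 2.377 for Sult1a1. In Dlk1+ replicate 2, 28% of cells had 3 or more Sult1a1 UMIs, against 0% to 5.682% in the other 6. For Mt1 it ranged from 0.913 to 2.186, with no more than 5 UMIs in any cell.

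A cell thinned to 2000 UMIs showed a median of 3 of the 10 genes. Of the 493 cells, 42 (8.5%) showed none, 56 (11.4%) showed 5 or more, and the highest number was 8. The mean number was 2.61, 2.88 and 3.582 in Dlk1+ libraries 1, 2 and 4, and 2.28, 2.029, 2.065 and 2.977 in Dlk1- libraries 1 to 4. Replicate 4 was highest in both sorts, and Dlk1- replicate 4 lay above Dlk1+ replicates 1 and 2. The summed level of the 10 genes was 1532, 2342, 2534 and 2400 CPM in Dlk1+ libraries 1 to 4 and 1295, 1272, 1361 and 2107 CPM in Dlk1-. Dlk1- replicate 4 lay above Dlk1+ replicate 1 and below the other 3 Dlk1+ libraries.

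Replicate 4 thus stood high within the Dlk1- sort. By CPM it was the highest Dlk1- library for 9 of 10 genes, against 47.3% of all genes. Gm10800 and Gm26870 transcripts took 11.72% of this library and 22.78% to 26.67% of the other Dlk1- libraries, and their part in its high values was not tested beyond the rescaling that follows. After scaling by trimmed mean of M-values (TMM), which sets libraries against their common genes, it was highest for 6 of 10, against 21.9% of all genes. Without the 2 satellite-like rows in the total it was highest for 7 of 10, against 24.9%. Sult1a1 on the TMM scale was 286.7 CPM in it and 108.2 to 114.8 CPM in the other Dlk1- libraries.

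From cell to cell the 10 genes correlated weakly with one another. Over the 45 pairs, Spearman's rho, taken within each library and averaged over 7 libraries, had a median of 0.0309. Over all 1146855 pairs of the 1515 genes it was 0.0106. It was positive for 29 of 45 pairs (64.4%) against 57.6% of all pairs, and 0 of 45 pairs were positive in all 7 libraries. With most cells at 0 or 1 UMI, these values describe sparse counts, and cells of 1 library share its preparation. They are given without a test.

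The highest mean rho was that of Sult1a1 and Gda, 0.121, positive in 6 of 7 libraries and ranging from -0.0534 to 0.321. Selp and Aldh1a1 had 0.119, with a range of -0.144 to 0.579, and Nupr1 and Sult1a1, neighbours on the chromosome, had 0.112. Nupr1 and Ehd3 had 0.107. These 4 pairs lay above the percentile 95 of all pairs, 0.1066, and the lowest, Gda and Fyb, had -0.0627. Thinned to 1000 UMIs, the value of Sult1a1 and Gda was 0.0258 and that of Selp and Aldh1a1 0.0127.

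**Figure D4:**
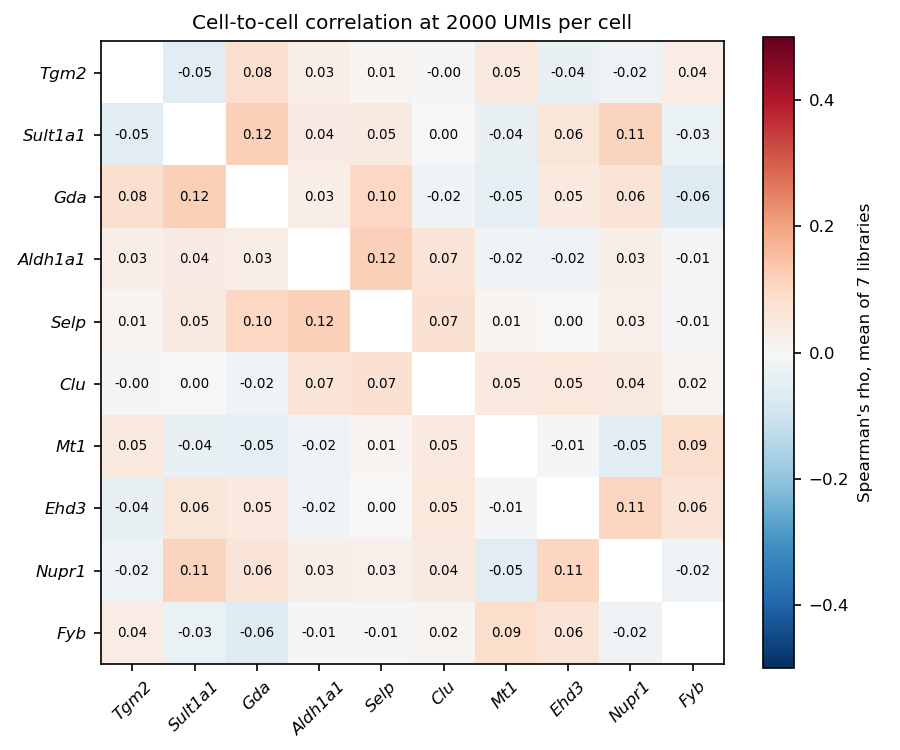
Spearman's rho between the genes over cells thinned to 2000 UMIs, computed within each library and averaged over 7 libraries (colour scale from -0.5 to 0.5, values printed). All 45 pairs lie between -0.0627 and 0.121, and Sult1a1 with Gda is the highest.

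For 7 of the 8 genes detected in at least 15% of these cells, the most similar other genes were found by the same measure over the 7 libraries and 493 cells. Nupr1 was closest to Bclaf1 (rho 0.277), Terf2 (0.249) and Rpl7 (0.211), and Selp to mt-Atp6 (0.221), Rpl13a (0.193) and mt-Co3 (0.191). None of these 7 lists held another of the 10 genes. Aldh1a1 was closest to Ptpn6 (0.208), Slc6a6 (0.182) and Gaa (0.177), and Clu to Rps27rt (0.187), Fosb (0.183) and Rpl22l1 (0.168). Tgm2 was closest to Cox6a1 (0.194), Rplp0 (0.173) and Dnajc7 (0.171). Gda had Sat1 (0.186), Cbx6 (0.184) and Rps14 (0.179), and Ehd3 had Bri3 (0.212), Gigyf1 (0.174) and Gm27956 (0.17). These are the extremes among 1515 genes and their values varied widely between libraries, as for Nupr1 with Bclaf1 (0.0475 to 0.635).

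Within the Dlk1+ sort, cells were next set apart by whether they carried a Dlk1 UMI, which 59 of 86, 22 of 27, 9 of 26 and 63 of 81 cells of libraries 1 to 4 did. The level of Gda in cells with and without a Dlk1 UMI was 297.3 and 160.1 CPM of UMIs in library 1, 311.7 and 115.9 in library 2, 465.7 and 117.2 in library 3, and 467.7 and 271.4 in library 4. It was higher with a Dlk1 UMI in 4 of 4 libraries, though the lower values of libraries 2 and 3 rest on 3 UMIs each. Sult1a1 was 317.4 and 185.4, 664 and 386.2, 155.2 and 156.2, and 516.9 and 215.5 CPM of UMIs, higher in 3 of 4 libraries and level in the shallow library 3. Tgm2, Gda and Mt1 were higher in 4 of 4 libraries, 3 of the 10 genes, against 7.2% of 5665 genes other than Dlk1, not matched in level. Some of these gaps were thin. Mt1 rests on 14 and 0 UMIs in library 2 and on 4 and 5 UMIs in library 3. In library 1, Tgm2 was 341.5 and 320.2 CPM of UMIs. Selp, Nupr1 and Sult1a1 were higher in 3 of 4, and Aldh1a1, Clu, Ehd3 and Fyb in 2 of 4.

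No test was made of this split, since an exact sign test over 4 libraries cannot give a p under 0.125. Median depth in cells with and without a Dlk1 UMI was 3931 and 4020, 3204 and 4247, 1406 and 1198, and 4862 and 4572 UMIs. It was thus higher with a Dlk1 UMI in libraries 3 and 4 and lower in libraries 1 and 2. Library 4 contained 1 cell with 2170 transcripts of the myeloid marker list among its 37287, where the next highest cell had 11, and this cell carried 36 UMIs of the 10 genes. Without cells of very high transcript number, 2 of the 10 genes, Gda and Mt1, were higher in 4 of 4 libraries. Without library 2, whose cells lacking a Dlk1 UMI numbered 5, there were 5, Selp and Nupr1 being added. Agreement in fewer libraries is easier to reach, and the share of all genes was not taken for either setting. The 7.2% of all genes therefore does not apply to these counts.

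**Figure D5:**
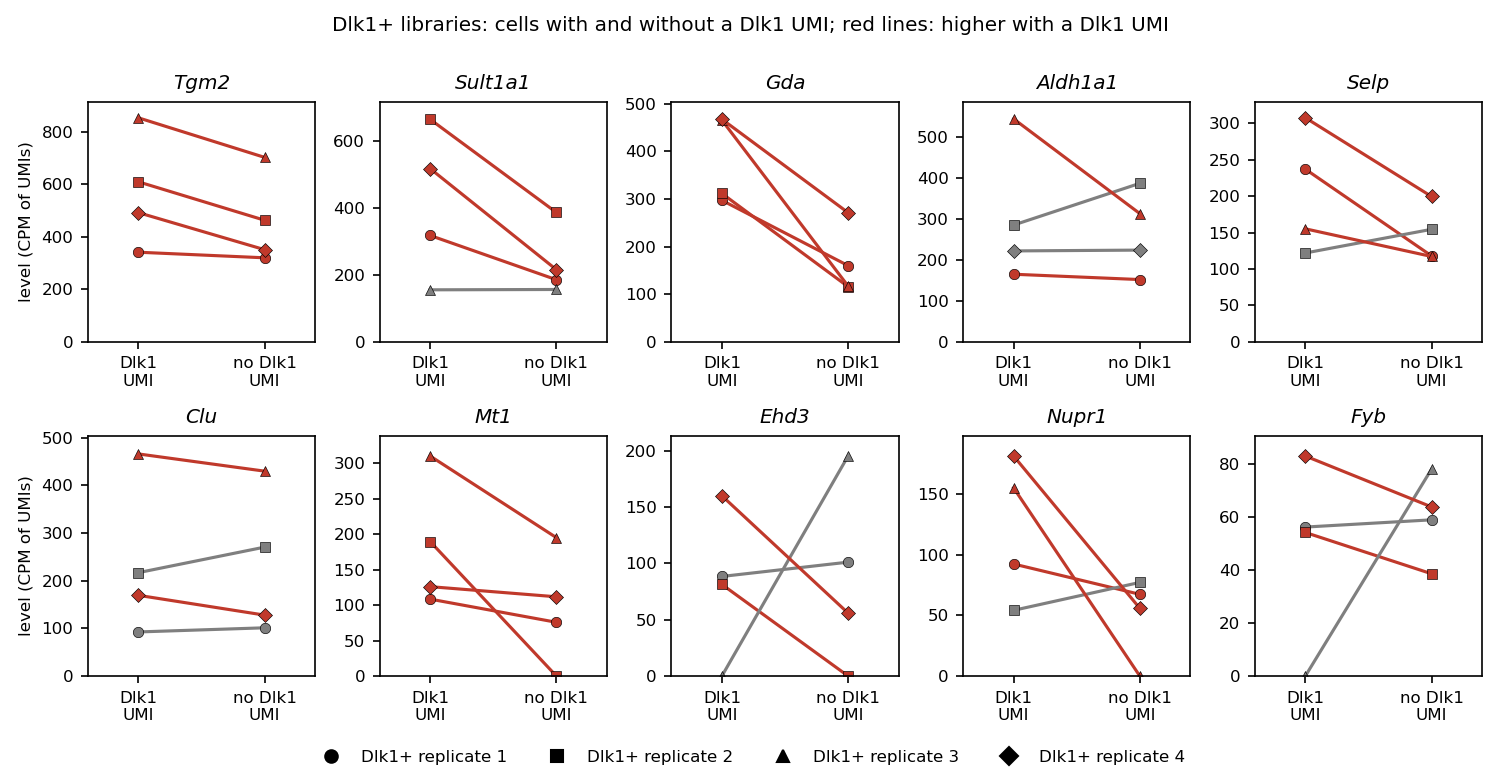
Level of each gene in CPM of UMIs (linear axes from 0) in cells with and without a Dlk1 UMI, with 1 line for each of the 4 Dlk1+ libraries, red where the level was higher with a Dlk1 UMI. Tgm2, Gda and Mt1 show 4 red lines, and of these genes Gda has the widest gaps, whereas Ehd3 and Fyb cross.

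A wider set of 28 genes known to rise in old HSC was looked at in the same way. Of these, 27 had a UMI, 19 were tested and 0 were called by limma-voom. At an unadjusted p under 0.05 there was 1, Ramp2, with a lower fitted level in Dlk1+, against 6.51% of all genes in either direction. The log2 fold change was above 0 for 13 of 19, against 44.8% of all genes, with a median of 0.1379 against -0.0446 over all genes. This list too was chosen with earlier results known, and all genes were not matched to it in level. Vwf, the von Willebrand factor, was at 246.8 ± 146.9 CPM in Dlk1+ and 164.4 ± 12.98 CPM in Dlk1- (log2 fold change 0.25, adjusted p = 0.8818, n = 4). Clca3a1, a marker of myeloid and platelet-biased HSC, was at 154.9 ± 61.63 and 155.8 ± 91.76 CPM. Ramp2, which partners the adrenomedullin receptor, had a log2 fold change of -0.98 (limma-voom adjusted p = 0.7366) and Plscr2, a phospholipid scramblase gene, one of -0.77 (adjusted p = 0.7627).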

How the data were processed

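The 10 genes and all gene lists were chosen with earlier results of these data known. Reads were aligned with BWA 0.6.2-r126 to mm10, per the submitters' processing notes; the counter, annotation and read filters are not given in the sources used here. The authors deposited estimated transcript counts per gene and barcode, 1 table per library, not scaled for depth and corrected for UMI collisions. They were inverted to whole UMIs (all within 1e-06 of a whole number) for shares and correlations. Cells were the barcodes of a sort's own wells (1 to 96 for Dlk1+, 97 to 192 for Dlk1-) without barcodes 17, 20 to 24 and 29 to 32, with at least 1000 transcripts, 220 in Dlk1+ and 321 in Dlk1- libraries. Doublets were not called. As an alternative, 4 cells over 3 scaled median absolute deviations above their library's median were left out.

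Transcripts were summed per library, scaled by TMM and tested with limma-voom (limma 3.58.1, R 4.3.3), with group as the only term and Benjamini-Hochberg adjustment over 5666 genes (in 4 libraries a CPM no lower than 10 transcripts give in the median library, and a total of at least 15). It replaced the planned count-model test, since the tables' unit could not be checked by code. On simulated data with 200 changed genes of 5666 it recovered 5%, 74% and 94.5% of genes changed 2-, 4- and 8-fold, with 2, 4 and 10 false calls. These data had the same dispersion set for every gene. Shares of cells were those expected after drawing 1000 UMIs per cell, compared by exact permutation over libraries, and correlations used 2000 UMIs. Intervals cover 95%. From each role list, genes past the FDR threshold or otherwise up to 2 of the largest change and 2 of the highest level were eligible to be named. Names, places and sequences are from RefSeq (GRCm38.p6). The genes most similar to Sult1a1 are not reported here.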

Additional observations from a re-analysis of the deposited data

Results flagged for a closer look

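In a group of 4 libraries, a library was singled out when it lay farther from the nearest of the other 3 than Dixon's 95% limit, a set part of the group's range, allows. This was so for 7 of the 40 groups looked at (10 genes, both sorts, level and share of cells), where chance alone gives about 1 in 20. The groups are not independent, since level and share of a gene rest on the same UMIs. The excess over that rate therefore cannot be judged from these counts. Dlk1- replicate 4 accounts for 4 of the 7, with Sult1a1 and Gda each counted by level and by share. Its Sult1a1 level was 327.1 CPM against 99.84 to 111.5 CPM in the other Dlk1- libraries, and its share of cells with a Sult1a1 UMI was 26.4% against 10% to 11.14%. Its Gda level was 304 CPM against 146.9 to 169.3 CPM, and its share of cells with a Gda UMI was 25.5% against 14.28% to 15.95%. Dlk1+ replicate 4 had a Gda level of 407.3 CPM against 230.4 to 253.8 CPM and a Fyb level of 76.61 CPM against 48.79 to 53.08 CPM. Dlk1+ replicate 3 had an Mt1 share of 25.16% against 8.674% to 11.01%. Replicate 4 of both sorts also had the lowest content of satellite-like transcripts (Gm10800 and Gm26870), 10.13% and 11.72%. With these left out of the totals, the Sult1a1 level of Dlk1- replicate 4 still lay past the limit, at 370.6 CPM, and so did its Sult1a1 share and the Mt1 share of Dlk1+ replicate 3. The other 4 did not. Gda was then 344.4 CPM against 199.5 to 230.9 CPM in Dlk1- replicate 4, with a share of 28.56% against 18.04% to 21.43%, and 453.2 CPM against 303.8 to 349.9 CPM in Dlk1+ replicate 4. Fyb in Dlk1+ replicate 4 was 85.25 CPM against 63.58 to 79.01 CPM. On the TMM scale, of the 4 levels only that of Sult1a1 lay past the limit, at 286.7 CPM against 108.2 to 114.8 CPM, and Fyb was 67.03 CPM against 46.84 to 65.81 CPM. These rescalings were chosen after seeing the data.

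A signal was also present outside the cells compared. The 10 barcodes left out carried 39 Mt1 UMIs in the Dlk1- libraries, whose wells they do not belong to, among 25978 UMIs (1501 CPM, against 101.3 CPM of UMIs in the kept Dlk1- cells). Of these, 29 lay on barcodes 17 and 20, which also held 14 Mt2 UMIs and 69 UMIs of Alb, the liver albumin gene, where all 541 kept cells held 2 of Alb. Tgm2 had 3 UMIs and Clu 2 on the 10 barcodes, and the other 7 genes had 0. With these barcodes kept in the Dlk1+ libraries, the log2 fold change of Mt1 was 0.62 in place of 0.31.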

How the results depend on the processing

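None of the 10 genes was called in any of the 18 alternative limma-voom fits. No call was made from shares, since the exact test over 4 libraries a sort cannot go below 0.0286. The planned count-model test (edgeR quasi-likelihood) was not run, and neither was DESeq2. Genes called in all numbered between 1 and 19 over these fits, 19 without Dlk1+ replicate 4, against 2. Without a filter on low counts the median log2 fold change of all genes was 0.24 in place of -0.0446, and 3 of 17884 genes were called. The log2 fold change kept its sign in all alternatives for 8 of 10 genes. It turned for Ehd3 to -0.0003 with the replicate block and ranged from -0.0774 (without Dlk1- replicate 3) to 0.2231 with libraries left out (-0.0075 without Dlk1+ replicate 4), and for Aldh1a1 to -0.2059 with 2000 transcripts per cell. Differences in share (percentage points) turned at 2000 UMIs for Nupr1 (-1.315), Aldh1a1 (-7.541) and Fyb (4.823), and with all UMIs for Nupr1 (-1.628), Aldh1a1 (-6.979), Ehd3 (-6.341) and Mt1 (-0.2044). With a library left out they ranged from -1.131 to 3.122 for Nupr1 (-0.506 without Dlk1- replicate 2) and from -0.3156 to 1.762 for Ehd3 (-0.2041 without Dlk1- replicate 3). Without thinning, the median rho of the pairs was 0.0788. Genes higher with a Dlk1 UMI in every Dlk1+ library numbered 3 to 5 with a library left out, 5 without Dlk1+ replicate 2. The share of all genes was not taken for these counts. The causes were not tested. Libraries of equal replicate number shared a plate, per the table names, and whether they shared more is not given. Their deviations from the group means correlated by 0.0299 to 0.0406 over 5666 genes, each Dlk1+ library being closest to its own number, and replicate 4 had the least satellite-like content in both sorts. With that number as a block, 0 of 10 genes and 1 of 5666 were called, and the sign test over pairs cannot go below 0.125. Depth limits most what Dlk1+ replicate 3 shows, with 2 UMIs each of Fyb and Nupr1.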
